A study of Mus musculus with 4 samples.

Results

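Glycolysis and hypoxia response genes are described here in the posterior part of E9.5 mouse embryos, Jmjd3-/- against wild-type. The 34 genes were taken as a given list by name, and every one had a probe on the array, out of 18224 genes named on it. All 34 passed the filter on dim probes, which 13584 genes of the series passed. They fall into 18 glycolytic enzymes and transporters, 4 regulators of glycolytic flux and 12 other genes that low oxygen is known to induce or that sense it.

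Jmjd3, now named Kdm6b, encodes a histone demethylase that removes methyl groups from lysine 27 of histone H3. Embryos came from matings between Jmjd3+/- mice, were staged by mating time and somite number, and were frozen; total RNA of Jmjd3-/- and of wild-type pieces was compared, from 2 independent RNA samples per genotype. Samples are called by the number in their label: replicates 1 and 9 are Jmjd3-/-, replicates 3 and 4 are wild-type, and values below come in that order. The sources used here do not say how the allele was made, nor the strain, the sex or how many embryos a sample holds. P-values therefore measure the spread between these RNA samples, which may be technical. Each sample was hybridised with Cy3 label to its own 1-colour Agilent array.

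Glycolysis splits glucose into pyruvate in the cytosol and yields ATP without oxygen; lactate dehydrogenase turns the pyruvate into lactate, which monocarboxylate transporters export. When oxygen is scarce, prolyl hydroxylases no longer mark HIF-1 alpha for breakdown, and the stabilised factor binds short DNA elements and raises genes for glucose uptake, glycolysis, vessel growth and mitochondrial turnover. In vertebrate embryos of this stage the tail bud and the unsegmented mesoderm are known for high glycolysis, which lessens toward the formed somites. Kdm6b itself belongs to the same wide family of oxygen-dependent dioxygenases as the prolyl hydroxylases.

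The share of probes well above background ranged from 59.8% to 63.0%, with 0 saturated spots. Jmjd3-/- replicate 1 stood furthest out: it and the wild-type arrays differed over 2-fold at 706 to 806 genes, where replicate 9 did so at 333 to 354. The Kdm6b probe read 0.35 and 0.11 in Jmjd3-/- against 2.15 and 2.23 in wild-type on the normalised log2 scale, a difference of -1.96 (SE 0.12) with an adjusted p of 0.149. It checks the labels only if the probe lies in the deleted part, which is not known here. Of 19 tail bud markers, 18 had a named probe, and all of those were well above background on both arrays of a genotype. On this scale 0 is the 75th percentile of the array's signals, and every difference below is Jmjd3-/- minus wild-type with its moderated standard error (SE) and n = 2 per genotype. The number of arrays limits the precision.

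Most glycolytic enzyme and transporter genes read slightly higher in the Jmjd3-/- posterior embryo, and the glucose transporter gene Slc2a3 and the aldolase gene Aldoc read close to double. In 16 of the 18, both Jmjd3-/- arrays lay above both wild-type arrays, where 23.0% of all genes tested did. In pieces of tissue, fewer cells of a type and less RNA per cell cannot be told apart. The gap was 0.00074 at Gapdh and 0.0029 at Gpi1, and with median scaling the count was 13, beside 19.9% of all genes. The median log2 difference of the 18 was 0.21, that of all genes tested -0.01. Of all 34 genes, 30 had a positive difference, against 46.9% of all genes, and 24 had both Jmjd3-/- arrays on top. Ldhb and Adm were the 2 with both Jmjd3-/- arrays below both wild-type arrays, a pattern seen in 23.7% of all genes.

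No single member passed the test. At an adjusted p under 0.05 limma called 0 of the 34 as higher and 0 as lower, where 0.0221% and 0.0147% of all genes were called, 0.0368% in either direction, and the smallest adjusted p of a member was 0.326, for Slc2a3. With an intensity trend and a robust prior the count was also 0. At an unadjusted p under 0.05, 8 were higher and 2 lower, against 5.15% and 5.93% of all genes. The differences were small: 3 of the 34 exceeded 0.5 in size and 20 were under 0.25, beside a median SE of 0.10. The genes were chosen with an earlier result for a similar list on these arrays in view, so the direction of these counts is not independent evidence.

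**Figure D1:**
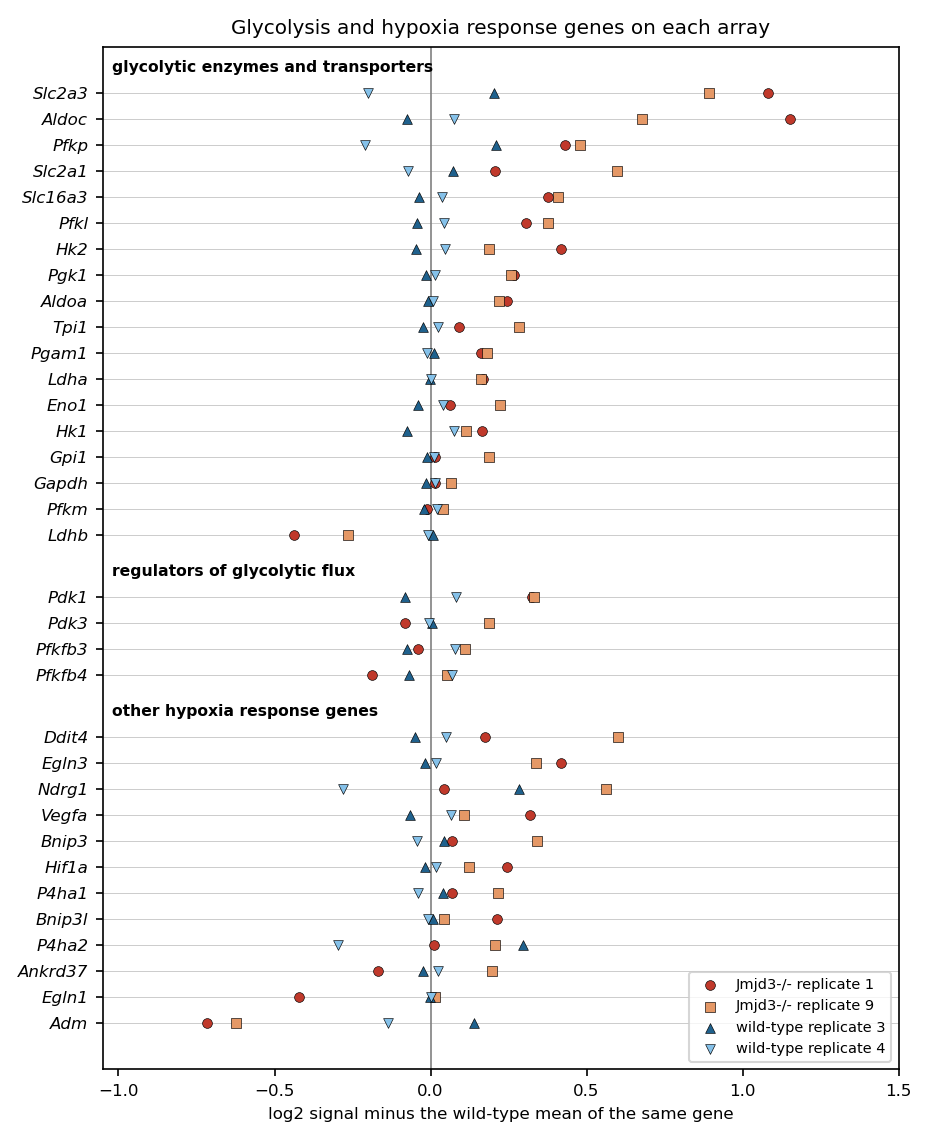
Normalised log2 signal of the 34 genes on each array, less the wild-type mean of the same gene, ordered by difference within the role groups; circles and squares are Jmjd3-/- replicates 1 and 9, triangles wild-type replicates 3 and 4. In 16 of 18 enzymes and transporters both Jmjd3-/- symbols lie right of both wild-type symbols, though at Gapdh and Gpi1 by almost nothing, and Ldhb and Adm lie to the left.

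HIF binds short DNA elements whose core is ACGTG or GCGTG, so the promoter windows of the members were searched for these letters on both strands. RefSeq windows of 300 bases (GRCm38.p6, 250 before to 50 after the start of the gene) were at hand for 31 of the 34 genes. Among them are Ldhb and Adm, which read lower than in wild-type, and Slc16a3, Aldoc, Egln3 and Ddit4, which read higher. Where a gene had several windows, only the first listed was searched, for members and all genes alike. Pfkm had 4 windows, Aldoa and Eno1 had 3, and Aldoc, Hk1, Ldha, Pdk1, Pfkfb3 and Vegfa had 2. ACGTG or its complement was in 19 of 31 windows, beside 25.0% of the 10826 tested genes with a window and 19.7% of all 27025 genes in the table. GCGTG was in 19 of 31, beside 49.9% and 32.5%. The palindrome CACGTG, which other factors also bind and which contains ACGTG, was in 4 of the member windows and 10.0% of those of tested genes. By role, ACGTG was in 9 of 17 enzymes and transporters and 8 of 10 other hypoxia response genes. The list joins glycolysis genes with genes of the hypoxia response, and known hypoxia targets are among them, so its share is no finding on these arrays.

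The difference was also set beside the presence of each motif, as a description. Members with ACGTG had a median difference of 0.17 (19 genes) and those without 0.17 (12 genes), with 18 and 9 positive. Members with GCGTG had a median of 0.14 (19 genes) and those without 0.20 (12 genes), with 15 and 12 positive. Among all tested genes with a window the medians with and without GCGTG were -0.01 (5407 genes) and -0.02 (5419 genes). With and without ACGTG they were -0.01 (2711 genes) and -0.02 (8115 genes). A match is a description of the letters and not a binding site.

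Promoters are shown for the genes of smallest p among the enzymes and transporters, Slc16a3 and Aldoc, and among the other hypoxia genes, Adm, Egln3 and Ddit4. Slc2a3, which leads the first set, is named only. They are written 5′ to 3′ on the strand of the gene, with both motifs and their complements in capitals. Slc16a3 (chr11:120948817-120949116, plus strand) carries 2 matches, Aldoc (chr11:78322823-78323122, plus strand) 3, Adm (chr7:110627407-110627706, plus strand) 2, Egln3 (chr12:54203825-54204124, minus strand) 1 and Ddit4 (chr10:59951721-59952020, minus strand) 2. The Adm window holds GCGTG, as its complement, and no ACGTG; the other windows hold ACGTG on one strand or the other. No match says only that these letters are not in this window, and other windows of a gene were not searched.
Slc16a3: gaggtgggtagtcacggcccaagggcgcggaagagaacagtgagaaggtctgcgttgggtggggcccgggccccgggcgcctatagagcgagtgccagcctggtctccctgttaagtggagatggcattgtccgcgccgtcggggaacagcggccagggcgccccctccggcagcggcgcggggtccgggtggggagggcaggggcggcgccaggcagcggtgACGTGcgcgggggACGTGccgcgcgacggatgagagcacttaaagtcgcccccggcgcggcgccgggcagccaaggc
Aldoc: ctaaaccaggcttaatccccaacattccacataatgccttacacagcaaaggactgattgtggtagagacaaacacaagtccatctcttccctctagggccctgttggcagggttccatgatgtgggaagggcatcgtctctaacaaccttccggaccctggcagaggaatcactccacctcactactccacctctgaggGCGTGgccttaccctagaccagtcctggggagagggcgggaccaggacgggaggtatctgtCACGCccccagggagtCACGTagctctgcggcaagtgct
Egln3: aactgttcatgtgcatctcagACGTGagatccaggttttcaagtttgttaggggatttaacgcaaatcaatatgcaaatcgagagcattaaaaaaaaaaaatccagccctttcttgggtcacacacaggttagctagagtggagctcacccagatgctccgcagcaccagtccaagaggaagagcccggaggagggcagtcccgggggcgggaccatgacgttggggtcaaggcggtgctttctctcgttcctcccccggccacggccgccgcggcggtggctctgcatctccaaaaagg
Ddit4: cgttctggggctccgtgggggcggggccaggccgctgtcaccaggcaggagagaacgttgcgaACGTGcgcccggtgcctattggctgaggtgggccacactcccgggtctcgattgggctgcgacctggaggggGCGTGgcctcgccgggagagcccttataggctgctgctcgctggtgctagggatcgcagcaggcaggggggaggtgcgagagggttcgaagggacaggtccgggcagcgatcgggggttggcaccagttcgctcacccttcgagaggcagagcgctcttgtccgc
Adm: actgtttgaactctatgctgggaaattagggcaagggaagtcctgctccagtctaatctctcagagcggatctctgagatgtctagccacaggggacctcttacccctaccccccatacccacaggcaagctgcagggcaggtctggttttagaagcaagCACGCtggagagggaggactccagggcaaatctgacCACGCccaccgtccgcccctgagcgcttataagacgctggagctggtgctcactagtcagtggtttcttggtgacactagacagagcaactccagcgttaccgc

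Glucose enters cells through the facilitative carriers GLUT1, encoded by Slc2a1, and GLUT3, encoded by Slc2a3, which has the higher affinity. Slc2a3 read 5.67 and 5.48 on the Jmjd3-/- arrays, against 4.79 and 4.39 on the wild-type arrays. Both Jmjd3-/- arrays stood clear of the wild-type pair by 0.69, more than the 0.40 by which the wild-type arrays differed. The difference was 0.99 (SE 0.18), 1.98-fold, with an adjusted p of 0.326, and it ranged from 0.79 to 1.19 over the alternatives. Slc2a1 read 6.08 and 6.47 against 5.94 and 5.80. Its Jmjd3-/- arrays were the upper ones and lay 0.39 apart, while the nearest arrays of the genotypes were 0.14 apart. The difference was 0.40 (SE 0.17). Without Jmjd3-/- replicate 9 it was 0.21.

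Slc16a3 encodes MCT4, the carrier by which strongly glycolytic cells release lactate. It read 5.61 and 5.64 in Jmjd3-/- and 5.19 and 5.27 in wild-type, 1.31-fold higher at 0.39 (SE 0.08) with an adjusted p of 0.330. The replicates of each genotype lay within 0.1 of each other, and the genotypes were 0.34 apart at their nearest. The related carrier gene Slc16a1, which is no member, differed by 0.24 (SE 0.08).

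Hexokinases trap glucose as its phosphate, and Hk2 is the isoform that growth signals and hypoxia are known to induce. Hk2 read 4.16 and 3.93 in Jmjd3-/- and 3.69 and 3.79 in wild-type, a difference of 0.30 (SE 0.12), while the more widely expressed Hk1 differed by 0.14 (SE 0.09). Gpi1, the isomerase of the next step, differed by 0.10 (SE 0.09), and its replicate 1 of Jmjd3-/- sat level with the wild-type arrays. Phosphofructokinase commits sugar to glycolysis, and its subunit genes did not read alike. Pfkl, the liver-type subunit, read 4.30 and 4.37 against 3.95 and 4.04, 1.27-fold higher at 0.34 (SE 0.08) with an adjusted p of 0.355. Pfkp, the platelet-type subunit, differed by 0.46 (SE 0.17), with wild-type arrays 0.42 apart. Its dimmer probe gave 0.07, at a low signal of -4.55 and -4.12 in Jmjd3-/- against -4.42 and -4.39 in wild-type. Pfkm, the muscle-type subunit, differed by 0.01 (SE 0.07) with all 4 arrays interleaved, and turned to -0.01 without wild-type replicate 3, -0.01 without Jmjd3-/- replicate 9 and -0.0031 with median scaling.

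Aldolase cleaves the sugar into trioses. Aldoc, the isoform best known from brain, read -0.08 and -0.55 in Jmjd3-/- and -1.30 and -1.15 in wild-type. Both Jmjd3-/- arrays were above wild-type, replicate 1 more so, with a difference of 0.92 (SE 0.19), 1.89-fold, and an adjusted p of 0.335. Without Jmjd3-/- replicate 1 it was 0.68. Aldoa, the main aldolase of most embryonic tissue, read 8.71 and 8.69 against 8.46 and 8.48, a difference of 0.23 (SE 0.07), and its dimmer probe gave 0.20.

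The later steps differed modestly. Pgk1, phosphoglycerate kinase, which makes the first ATP of the pathway's payoff phase, read 7.63 and 7.62 in Jmjd3-/- and 7.35 and 7.37 in wild-type, with both pairs almost coincident, a difference of 0.26 (SE 0.07) and 0.27 at the dimmer probe. Triose phosphate isomerase (Tpi1), phosphoglycerate mutase (Pgam1) and enolase (Eno1) differed by 0.19 (SE 0.10), 0.17 (SE 0.07) and 0.14 (SE 0.10). Gapdh, the dehydrogenase often used as a reference gene, differed by 0.04 (SE 0.07), the smallest of these, and 0.01 at its second probe. Several of these genes, Gapdh foremost, have processed copies in the mouse genome, and which copies the probes bind was not tested. Pkm, pyruvate kinase, which completes the pathway and was on the list of related genes, read 5.96 and 5.97 against 5.50 and 5.71, a difference of 0.37 (SE 0.10).

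Lactate dehydrogenase is assembled from A subunits, which favour making lactate, and B subunits, which favour using it. Ldha read 8.12 and 8.12 in Jmjd3-/- and 7.95 and 7.96 in wild-type, a difference of 0.17 (SE 0.07), and 0.27 at its dimmer probe. Ldhb went the other way: it read 3.81 and 3.98 against 4.26 and 4.24. The wild-type arrays were 0.02 apart and both Jmjd3-/- arrays lay below them, with a difference of -0.35 (SE 0.09), 1.28-fold lower, and an adjusted p of 0.374. It was the 1 gene of the 18 with a negative difference, and its sign held under all 13 alternatives that gave a value for it.

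Isoforms of one step differed unequally within the same arrays. Relative to the wild-type mean, the log2 signal of Ldha less that of Ldhb was 0.60 and 0.43 in Jmjd3-/- replicates 1 and 9, with the wild-type arrays within 0.01 of their mean. Aldoc less Aldoa gave 0.91 and 0.46, with wild-type within 0.07. For Slc2a3 less Slc2a1 the values were 0.87 and 0.30, with wild-type within 0.13. Of 10 such pairs computed, 8 had genotypes that did not overlap, and P4ha1 less P4ha2 and Bnip3 less Bnip3l did overlap. Among single genes, 23.0% of all genes had both Jmjd3-/- arrays above both wild-type arrays and 23.7% had them below. The pairs were chosen by name, Pfkl and Pfkp were both set against Pfkm, and no share over other gene pairs was computed. These are descriptions with no test, and they say nothing on which isoform is the more abundant.

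The 4 regulators of flux had mixed values, with a median of 0.04. Pdk1, a kinase that inhibits pyruvate dehydrogenase and a well known HIF target, read 1.72 and 1.72 in Jmjd3-/- and 1.31 and 1.47 in wild-type. It was the 1 regulator whose genotypes did not overlap, at 0.33 (SE 0.09), 1.26-fold, and 0.18 at its dimmer probe. Its relative Pdk3 differed by 0.05 (SE 0.12). Pfkfb3 and Pfkfb4 make the sugar bisphosphate that activates phosphofructokinase, and they differed by 0.03 (SE 0.11) and -0.07 (SE 0.12), though the dimmer Pfkfb3 probe gave 0.56. The median of the 4 was 0.15 without Jmjd3-/- replicate 1, -0.06 without replicate 9, 0.0075 without wild-type replicate 3 and 0.08 without wild-type replicate 4.

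Among the 12 other hypoxia response genes, 10 had a positive difference and 7 had both Jmjd3-/- arrays above both wild-type arrays, beside the 23.0% of all genes. Their median was 0.16, and 0.07 without Jmjd3-/- replicate 9. Hif1a, the oxygen-regulated subunit itself, which is controlled mainly as protein, read 1.52 and 1.40 against 1.26 and 1.29, a difference of 0.18 (SE 0.08).

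The prolyl hydroxylases that mark HIF for breakdown are themselves HIF targets, which makes Egln3 a usual readout of the pathway. Egln3, whose window holds ACGTG, read -0.57 and -0.65 in Jmjd3-/- and -1.01 and -0.97 in wild-type, 1.30-fold higher at 0.38 (SE 0.08) with an adjusted p of 0.332. The replicates of each genotype were close and the genotypes apart by 0.32. Egln1, the main oxygen sensor, differed by -0.20 (SE 0.17), which came from 1 array: it read -0.15 and 0.29 against 0.27 and 0.28. Without Jmjd3-/- replicate 1 its difference was 0.01.

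Vegfa, the growth factor of vessels, differed by 0.21 (SE 0.11) at its brightest probe and by 0.18 and 0.23 at its dimmer ones. Adm encodes adrenomedullin, a vessel peptide and a strong hypoxia target. With Egln1, it was 1 of the 2 genes of these 12 that had a negative difference. It read -3.62 and -3.52 in Jmjd3-/- and -2.76 and -3.04 in wild-type. Both Jmjd3-/- arrays were below both wild-type arrays, with a difference of -0.67 (SE 0.13), 1.59-fold lower, and an adjusted p of 0.330. Its processed signal was 49.2 and 50.3 against 88.3 and 76.4 intensity units, after background subtraction, and the difference ranged from -0.81 to -0.26 over the alternatives, the smaller size with normexp, which adds an offset of 50. Its promoter window, printed above, held GCGTG, as its complement, and no ACGTG. Over the members the median difference was 0.17 both with and without ACGTG, and a link of motif and direction was not tested.

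Ddit4 encodes REDD1, a brake on mTORC1 that hypoxia and other stresses raise, and it read 1.75 and 2.18 against 1.53 and 1.62. Both Jmjd3-/- arrays were above wild-type, replicate 9 by far the more, so the difference of 0.39 (SE 0.17) was 0.17 without replicate 9. Bnip3 and Bnip3l, receptors that direct mitochondria to autophagy, differed by 0.20 (SE 0.13) and 0.13 (SE 0.09). P4ha1 and P4ha2, collagen prolyl hydroxylases, differed by 0.14 (SE 0.09) and 0.11 (SE 0.24), and P4ha2 turned to -0.19 without wild-type replicate 4. Ndrg1, a stress-responsive gene, differed by 0.30 (SE 0.29) with wild-type arrays 0.56 apart, and Ankrd37 differed by 0.01 (SE 0.15), its sign turning to -0.01 without wild-type replicate 3, -0.17 without Jmjd3-/- replicate 9 and -0.0041 with median scaling.

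Enzymes and transporters and other hypoxia response genes had nearly the same median. It was 0.21 for the 18 and 0.16 for the 12, a gap of 0.05, or 0.02 when the 4 regulators were placed with the enzymes. In Jmjd3-/- replicate 1 the enzyme median was 0.19 and the hypoxia median 0.07; in replicate 9 they were 0.22 and 0.20. Wild-type replicate 4 less replicate 3 gave 0.03 for the enzymes. The enzyme median was close in both Jmjd3-/- samples, while the gap between the lists was wider in replicate 1. Without replicate 9 the gap was 0.12, without replicate 1 0.02, without wild-type replicate 3 0.03, and without wild-type replicate 4 0.12. With the chromosome 11 genes left out it was -0.0050, with the sign turned. Both Jmjd3-/- arrays lay above both wild-type arrays in 16 of 18 enzymes and transporters and 7 of 12 other hypoxia response genes, and the genotypes overlapped in 1 and 4; no test was made of these differences.

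**Figure D2:**
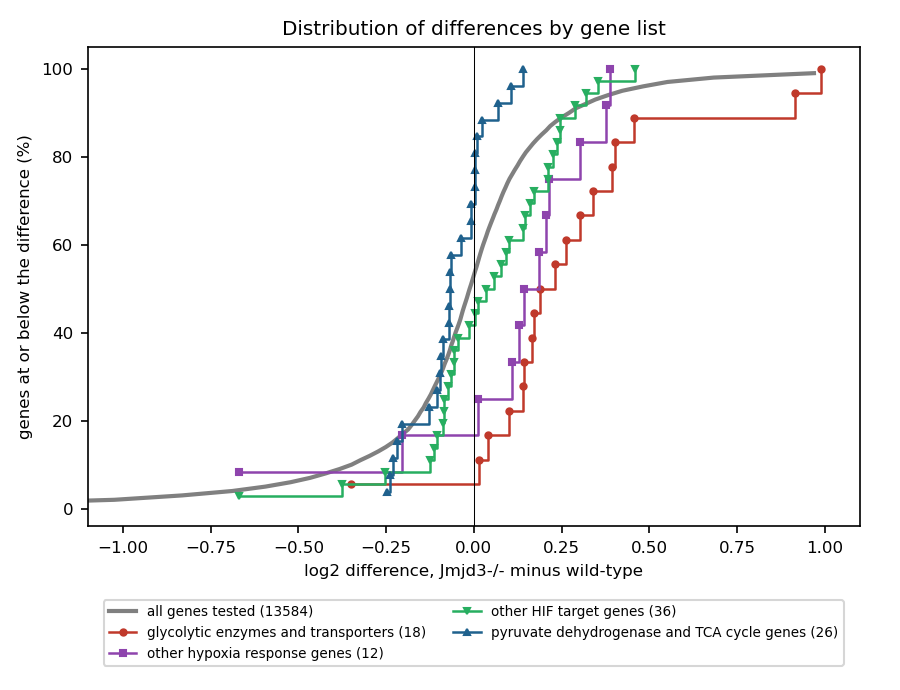
Cumulative share of genes at or below a log2 difference (Jmjd3-/- minus wild-type), for the enzymes and transporters, the other hypoxia response genes, a list of other HIF targets, pyruvate dehydrogenase and TCA cycle genes, and the 1st to 99th percentile of all genes tested. Enzymes and transporters lie right of all genes with a median of 0.21, and TCA cycle genes rise steeply just left of 0 with a median of -0.07.

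The genes around the members gave a mixed picture, with 0 genes called over all genes by limma in each of the lists that follow. The 21 other glycolysis genes tested are mostly isoforms of liver, muscle, brain or testis. Of them 10 had a positive difference, near the 46.9% of all genes. Both Jmjd3-/- arrays were on top in 6, beside 23.0% of all genes. At an unadjusted p under 0.05, 3 were higher and 0 lower, beside 5.15% and 5.93% of all genes. Their median was -0.01, but -0.15 in Jmjd3-/- replicate 1 and 0.16 in replicate 9. Ldhc, the testis-type lactate dehydrogenase, differed by 0.99 (SE 0.26) and Hk3, a hexokinase of blood cells, by -1.41 (SE 0.58). Of 36 other HIF targets, 21 had a positive difference, beside 46.9% of all genes, and 12 had both Jmjd3-/- arrays on top, beside 23.0%. Their median was 0.04, with 1 higher and 2 lower at an unadjusted p under 0.05, beside the same 5.15% and 5.93%. The adenylate kinase gene Ak4 differed by 0.29 (SE 0.07). The repressor gene Bhlhe40 differed by -0.67 (SE 0.13) and Angptl4, a regulator of lipid uptake, by -0.37 (SE 0.10). Some of these genes had low processed signals. In intensity units, Bhlhe40 read 24.3 and 28.3 against 40.4 and 46.5, and Hk3 read 21.1 and 56.9 against 78.7 and 116. Ldhc read 91.4 and 61.6 against 45.1 and 34.2.

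Of 12 genes on a list for oxygen sensing and HIF subunits, which also holds Myc, 9 were positive, beside 46.9% of all genes. Their median was 0.09, and 0 in either direction had an unadjusted p under 0.05, beside 5.15% higher and 5.93% lower of all genes. Epas1, which encodes HIF-2 alpha, differed by 0.49 (SE 0.24) with wild-type arrays 0.62 apart, and Myc, a driver of glycolytic genes, by -0.23 (SE 0.10). The pentose phosphate pathway, which branches from glucose phosphate, had 6 of 7 genes positive, beside the same 46.9% of all genes. Its median was 0.09, with 0 at an unadjusted p under 0.05, beside the same shares of all genes.

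Genes that carry pyruvate into and through the mitochondrial TCA cycle leaned the other way. Of 26 tested, 8 had a positive and 18 a negative difference, beside 46.9% positive of all genes, 9 had both Jmjd3-/- arrays below both wild-type arrays, beside 23.7% of all genes, and the median was -0.07. Among them 1, Sdhb, was lower at an unadjusted p under 0.05, beside 5.93% of all genes. The mitochondrial pyruvate carrier genes Mpc1 and Mpc2 differed by -0.24 (SE 0.10) and -0.25 (SE 0.13), Sdhb, a subunit of succinate dehydrogenase, by -0.23 (SE 0.08), and Idh3a, of isocitrate dehydrogenase, by -0.20 (SE 0.09). The list's lean was that of Jmjd3-/- replicate 1, where the median was -0.12; in replicate 9 it was 0.0022. The count of positive genes was 13 without Jmjd3-/- replicate 1, 3 without replicate 9, 5 without wild-type replicate 3, 7 without wild-type replicate 4, and 4 with either normexp or median scaling.

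**Figure D3:**
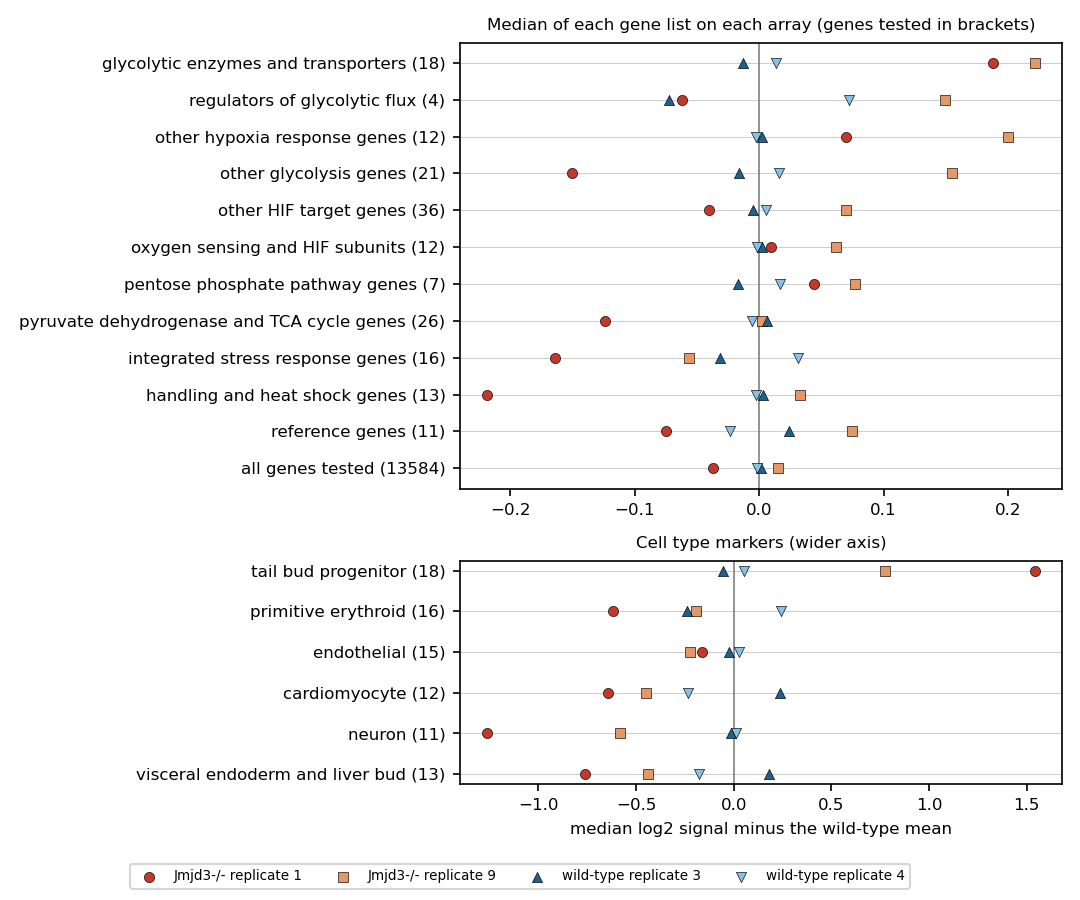
Median over each gene list of the log2 signal less the wild-type mean, for each array; the upper panel holds pathway lists and the lower one cell type markers on a wider axis, with the same 4 symbols for the arrays. The enzyme and transporter medians of the Jmjd3-/- arrays are close to each other at 0.19 and 0.22, while the tail bud medians are 1.54 and 0.77.

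Markers of cell types that the tissue can hold differed in sign by list in the same arrays. All 18 tested tail bud markers had a positive difference, beside 46.9% of all genes, with list medians of 1.54 and 0.77 in Jmjd3-/- replicates 1 and 9 against the wild-type mean. The mean log2 signal over that list was 0.49 and -0.17 in Jmjd3-/- and -0.97 and -0.90 in wild-type. Differences were negative for neurons in 11 of 11 tested genes, for erythroid cells in 15 of 16 and for endothelium in 12 of 15. They were negative for cardiomyocytes in 8 of 12 and for visceral endoderm and liver bud in 8 of 13. Over all genes tested, 7218 of 13584 were negative. Limma called 0 of the markers over all genes. At an unadjusted p under 0.05, 14 tail bud markers were higher and 7 neuron markers lower, beside 5.15% and 5.93% of all genes. At the same threshold 3 erythroid, 5 endothelial and 4 cardiomyocyte markers were lower. The visceral endoderm and liver bud list was split, with 3 higher and 5 lower and differences from -2.08 to 1.43. The medians of the 5 lists were -0.81, -0.39, -0.12, -0.75 and -0.60. The mean log2 signal of the neuron list was -2.43 and -1.80 in Jmjd3-/- against -1.11 and -1.08 in wild-type. For the erythroid list it was 0.79 and 1.14 against 1.09 and 1.59. For the endothelial list it was 0.22 and 0.14 against 0.36 and 0.36. For the cardiomyocyte list it was -2.28 and -2.12 against -1.22 and -1.80. For the visceral endoderm and liver bud list it was -1.58 and -2.42 against -1.48 and -1.83. Both Jmjd3-/- arrays were below both wild-type arrays in the neuron, endothelial and cardiomyocyte lists, and the genotypes overlapped in the erythroid and the visceral endoderm and liver bud lists. Not well above background on both arrays of either genotype were Erg, Ttn, Pln, Neurod1, Apoa4 and Fga. Some markers passed the filter through the wild-type arrays alone. Lhx3 was well above background on 0 Jmjd3-/- arrays, and Dcx and Nkx2-5 on 1. The filter favours a negative difference for such genes, so their part in the neuron and cardiomyocyte counts, medians and means is no independent evidence. The part of these differences in the values of the glycolysis and hypoxia genes was not tested. The enzyme and transporter medians of the same Jmjd3-/- arrays were 0.19 and 0.22.

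Slc16a3, Aldoc and P4ha2 lie on chromosome 11 with Kdm6b, 1002, 242 and 223 protein-coding genes away in RefSeq gene order. Over 1146 tested genes of that chromosome the median was -0.01, and 23.0% had both Jmjd3-/- arrays on top. Without the chromosome 11 genes, 14 of 16 enzymes and transporters had both Jmjd3-/- arrays above both wild-type arrays, with a median of 0.18. Pgk1 and Pdk3 are X-linked. Xist, the RNA of the inactive X chromosome, read 2.92 and 1.82 in Jmjd3-/- and 2.10 and 2.18 in wild-type, and the Y-linked genes Ddx3y, Eif2s3y, Kdm5d and Uty were well above background on no array.

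Where a gene had several probes, they gave the same sign. Of 54 probes for the 34 genes, 50 passed the filter, and in 13 of 13 genes with more than 1 such probe the probes had the same sign. Of the 16 dimmer probes 15 were positive, as were 45 of all 50, with a median of 0.18. Probes of a gene share the RNA of the same arrays and are not replicates. Slc2a3, Adm, Slc16a3, Egln3 and Aldoc, the members of smallest p, each rested on a single probe above background.

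**Figure D4:**
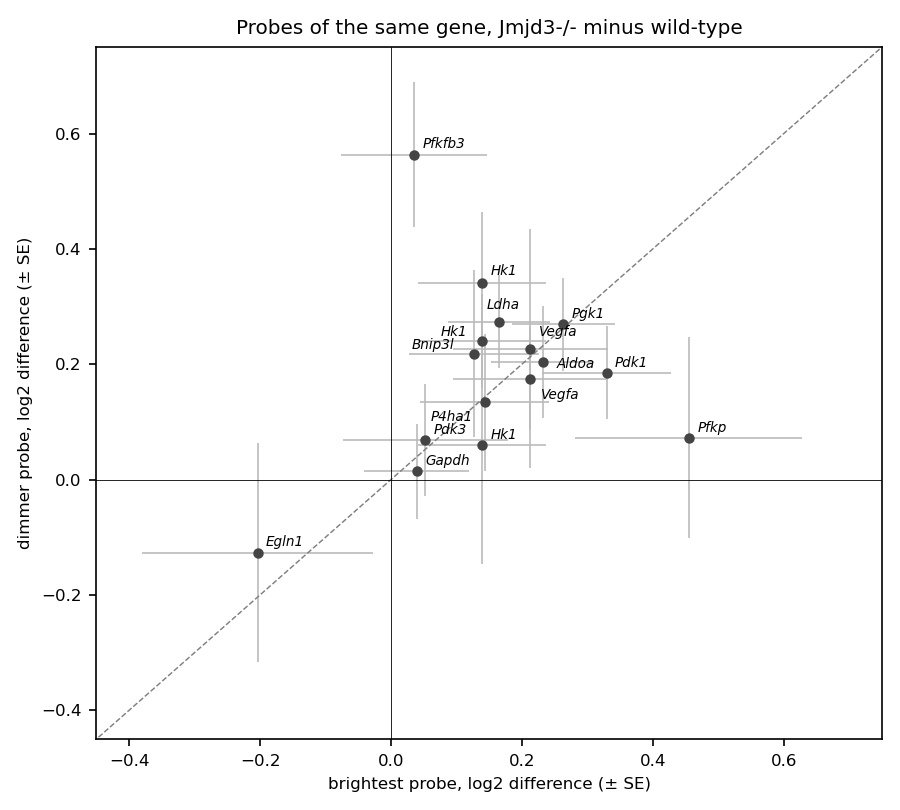
Log2 difference (Jmjd3-/- minus wild-type) of each dimmer probe against that of the brightest probe of the same gene, with SE bars from a fit over all probes and the line of equality dashed. The 16 points lie in the quadrants of equal sign, most near the line, with Pfkfb3 far above it and Pfkp below it.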

How the data were processed

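Per the file headers, the deposited intensity of each spot comes from Agilent Feature Extraction 10.7.3.1 on 1-colour arrays, corrected within each array for background and trend and not normalised between arrays. All 4 arrays were on 1 slide, with the Jmjd3-/- arrays at its ends, so slide position and genotype cannot be told apart. The deposited table of log2 values has no stated scale; 99.9% of its probes per array lay within 0.01 of the log2 intensity less each array's 75th percentile and the wild-type mean (r from 0.995 to 0.997 across probes), and its column medians were -0.02, 0.02, -0.02 and 0.05 for Jmjd3-/- replicate 1, wild-type replicates 3 and 4 and Jmjd3-/- replicate 9.

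Control spots (1639 of 45018) were left out, log2 intensities were averaged over the spots of a probe and taken relative to that array's 75th percentile. Probes were named by accession through the RefSeq table of GRCm38.p6 (26690 by accession, 28 by synonym, 14456 of 41174 unnamed); the headers name build mm9. The brightest probe stood for a gene, and genes well above background on both arrays of a genotype were tested with limma 3.58.1 in R 4.3.3 (lmFit, eBayes, no covariate, Benjamini-Hochberg over all genes). The fit was checked on simulated arrays.

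Members, lists and the naming rule (all members, Kdm6b, sex-linked genes and up to 4 genes by p of each other list, with promoters for the 3 genes of smallest p in the main role groups) were chosen with earlier results of these data known. A gene that the rule names is not reported here. Normexp used the median spot signal with an offset of 50, in place of the mean signal that had been planned. Alternatives were another background correction, scaling, filter, probe rule or variance model, the deposited table, flagged spots left out, each array left out, and chromosome 11 left out.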

Additional observations from a re-analysis of the deposited data

How the results depend on the processing

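Over 13 alternatives, 429 of 442 member values kept their sign, and 27 of the 34 genes kept it throughout; 0 passed the threshold, with a lowest adjusted p of 0.0576. Signs turned with arrays left out, with lowest to highest values of -0.012 to 0.040 for Pfkm, -0.042 to 0.11 for Pfkfb3, -0.19 to 0.052 for Pfkfb4, -0.083 to 0.19 for Pdk3, -0.42 to 0.013 for Egln1, -0.19 to 0.40 for P4ha2 and -0.17 to 0.20 for Ankrd37, and among other genes -0.48 to 0.040 for B2m and -0.32 to 0.78 for Xist. Median scaling turned Pfkm (-0.0031) and Ankrd37 (-0.0041). Averaging all probes of a gene, dim ones included, gave 0.49 for Vegfa, 0.27 for Hk1, 0.17 for Pfkfb3 and 0.26 for Pfkp. The enzyme median was 0.24 averaging all probes per gene, 0.18 without chromosome 11, and from 0.19 to 0.23 over arrays left out. Over arrays left out, the hypoxia median ran from 0.069 to 0.20, the gap between the lists from 0.021 to 0.12 (-0.0050 without chromosome 11), the TCA median from -0.12 to 0.0022, its positive genes from 3 to 13, and the median of all genes from -0.037 to 0.015. Enzymes with Jmjd3-/- arrays on top numbered 13 with median scaling (19.9% of all genes), 14 with normexp and 15 averaging probes. Positive TCA genes numbered 4 with median scaling and 4 with normexp. Calls over all genes, higher and lower, were 3 and 2; they were 1 and 1 with normexp, 3 and 4 with median scaling, 3 and 4 without flagged spots, 2 and 1 averaging probes, 1 and 2 with the trend and robust prior, 0 and 0 with quantile normalisation, 0 and 0 with no filter and 0 and 0 with a filter on all 4 arrays, and the cause was not tested. Over arrays left out the counts ran from 0 to 47 and from 0 to 120, the highest without Jmjd3-/- replicate 9, where the lone replicate 1 is assumed to vary like the wild-type pair; Kdm6b then passed at -1.84. With 20 members under 0.25 in size beside a median SE of 0.10, 2 arrays per genotype limit what can be resolved, and a p over the threshold does not show that values were equal. No paired analysis was possible because the genotypes share no replicate numbers.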

Other observations

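Genes of the integrated stress response, through which low oxygen and lack of amino acids also act, mostly had negative differences in these samples. Of 16 tested, 14 had a negative difference and 2 a positive one, beside 46.9% positive of all genes, and 8 had both Jmjd3-/- arrays below both wild-type arrays, beside 23.7%, with a median of -0.13 that was -0.16 in Jmjd3-/- replicate 1 and -0.06 in replicate 9; limma called 0 over all genes, and 1 had an unadjusted p under 0.05. That was Mthfd2, of mitochondrial folate metabolism, at -0.26 (SE 0.08), where 5.93% of all genes were lower at that threshold. Asns and Phgdh, which make asparagine and serine, differed by -0.27 (SE 0.12) and -0.28 (SE 0.13), and the stress kinase-like gene Trib3 by -0.84 (SE 0.39). Immediate early and heat shock genes, which respond to handling, had a median of -0.22 in Jmjd3-/- replicate 1 and 0.03 in replicate 9, and the small heat shock gene Hspb1 differed by -1.12 (SE 0.36). The 11 reference genes had a median of -0.003, with 5 positive, and Hprt differed by -0.33 (SE 0.11).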
